A study of Mus musculus with 2 samples.

Results

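The AP-1 and Egr1 immediate early factors were followed in mouse liver as 9 named genes. They are Fos, Fosb, Fosl1 and Fosl2 of the Fos family, Jun, Junb and Jund of the Jun family, Atf3 and Egr1. They were taken by gene name, as a group proposed with earlier results of these data known. Each of the 9 names matched 1 of the 23283 gene rows in the authors' deposited table, and none had a failed status. Expression was measured by RNA sequencing of perfused livers from male C57Bl/6 mice aged 6 months. The Alb-Cre library came from Akt1F/F;Akt2-/-;Alb-Cre mice, and the control library came from Akt1F/F;Akt2-/- mice. Both groups are thus labelled as lacking Akt2 and carrying floxed Akt1. Alb-Cre, a recombinase under the albumin promoter, deletes floxed sequence in hepatocytes. Cells of the Alb-Cre livers in which that promoter was never active should keep Akt1. By its labels the comparison asks what loss of hepatocyte Akt1 adds in livers that lack Akt2. Akt2 had 33.5 FPKM in the Alb-Cre library and 37.5 FPKM in the control library, and Akt1 had 17.1 FPKM in the Alb-Cre library and 23.7 FPKM in the control library. Which exons the alleles remove is not given in the sources used here, so these whole-gene values do not show the loss of either gene. Akt kinases act below the insulin and growth factor receptors.

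Each library pools mRNA from 4 livers of 1 genotype, which leaves 2 libraries and no replicate in either group. No difference below carries an error or a test, and the spread between mice was not measured. In bulk tissue, fewer cells of a type and less RNA per cell cannot be told apart.

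AP-1 is a dimeric transcription factor built from basic leucine zipper (bZIP) proteins. Fos proteins do not pair with each other and bind DNA with a Jun partner, while Jun proteins can also pair among themselves. Fos and Egr1 are classical immediate early genes, whose transcription starts within minutes of a growth factor or stress signal, with no need for new protein synthesis. Serum response factor (SRF) with its ternary complex partners, and CREB-type factors at cyclic AMP response elements (CREs), are well known activators of them. In liver, Jun is known for its role in hepatocyte survival and regeneration, and the group responds quickly to partial hepatectomy.

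The stretch before the start of a few of these genes is shown because such signals can act there, although sites further from the start are not covered. The sequences are the 250 bases before the RefSeq start on GRCm38.p6, read 5′ to 3′ on the strand of the gene. Fos (chr12:85473640-85473889, plus strand) and Fosb (chr7:19310046-19310295, minus strand) stand for the Fos family, whose levels differed most between the libraries. Jun (chr4:95052223-95052472, minus strand) and Junb (chr8:84978749-84978998, minus strand) stand for their partners, whose levels differed less. Capitals mark every match to 4 motifs: the short CRE core TGACG, the CRE-like TGACNTCA, the TATA motif TATAAA and the Egr1-type motif GCGNGGGCG, searched on both strands.
Fos: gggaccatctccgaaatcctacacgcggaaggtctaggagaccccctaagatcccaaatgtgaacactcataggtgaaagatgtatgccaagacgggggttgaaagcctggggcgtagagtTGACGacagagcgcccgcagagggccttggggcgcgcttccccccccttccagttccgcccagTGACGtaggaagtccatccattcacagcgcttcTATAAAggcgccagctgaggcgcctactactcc
Fosb: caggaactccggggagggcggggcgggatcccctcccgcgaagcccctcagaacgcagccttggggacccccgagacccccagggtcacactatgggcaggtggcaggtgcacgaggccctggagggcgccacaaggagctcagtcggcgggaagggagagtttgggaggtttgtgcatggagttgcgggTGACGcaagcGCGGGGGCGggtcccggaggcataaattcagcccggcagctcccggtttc
Jun: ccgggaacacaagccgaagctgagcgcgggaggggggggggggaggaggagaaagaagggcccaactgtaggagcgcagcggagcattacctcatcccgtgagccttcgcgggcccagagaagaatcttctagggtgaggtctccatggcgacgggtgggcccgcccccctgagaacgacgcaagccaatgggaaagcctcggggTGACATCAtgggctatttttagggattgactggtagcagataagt
Junb: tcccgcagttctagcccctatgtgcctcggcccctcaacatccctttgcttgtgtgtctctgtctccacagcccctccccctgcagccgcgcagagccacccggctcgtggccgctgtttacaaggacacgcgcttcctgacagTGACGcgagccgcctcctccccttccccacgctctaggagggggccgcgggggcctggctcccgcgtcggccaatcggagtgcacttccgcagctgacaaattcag

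Positions count back from the start, with -1 as the last base shown. The Fos window held TGACG at -129 to -125 and at -66 to -62, and TATAAA at -33 to -28. The Fosb window held TGACG at -60 to -56 and GCGGGGGCG at -50 to -42. Jun held TGACATCA at -45 to -38, and Junb held TGACG at -106 to -102. TGACG and TGACNTCA overlap where the N is a G, which none of the 4 windows had. Of 32851 windows of this length, TGACG was found in 17.8%, TGACNTCA in 7.49%, TATAAA in 12.4% and GCGNGGGCG in 4.70%.

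Among the 7 members with a promoter entry, TGACG was also found in Atf3, and GCGGGGGCG was also found in Fosl2, at -79 to -71. The window of Jund held none of the 4 motifs, and that of Fosl2, which lies inside an annotated GENCODE exon, is not shown. The AP-1 motif TGANTCA, which 6.75% of all windows held, and the CArG box bound by SRF, which 1.47% held, were found in none of the 7. Sites more than 250 bases before the start were not searched, and Egr1 and Fosl1 had no promoter entry. The lack of a match therefore does not show that a gene lacks such a site. These are matches of letters in a short window, and no binding was measured.

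Fos, Fosl2 and Fosb had the largest relative differences of the group, and all 3 were higher in the Alb-Cre library. Fos encodes c-Fos, the founding member of the family. It had 22.3 FPKM in the Alb-Cre library, against 5.21 FPKM in the control library, where FPKM is a fragment count corrected for transcript length and for library size. The level was 4.28-fold higher, a log2 ratio of 1.91 when 1 FPKM is added to both values, as for all log2 ratios below. Fos (mm10 chromosome 12, 85473901 to 85477270) stood above 73.2% of all measured genes by level in the Alb-Cre library and above 36.8% in the control library.

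Fosl2 encodes Fra-2, a Fos protein without the strong carboxy-terminal activation domain of c-Fos. Its level was 12.4 FPKM in the Alb-Cre library and 1.79 FPKM in the control library. The 6.93-fold difference, a log2 ratio of 2.26, was the largest of the 8 measured members on the log2 scale, and 96 of 11406 measured genes had a higher ratio. For Fos, 131 genes had a higher ratio. Fosl2 (chromosome 5, 32136472 to 32157839) stood above 59.8% of measured genes by level in the Alb-Cre library and above 14.7% in the control library.

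Fosb (chromosome 7, 19302696 to 19310045) encodes a Fos protein that, in brain, also has a long-lived truncated form. It had 1.03 FPKM in the Alb-Cre library and 0.0472 FPKM in the control library, a plain ratio of 21.7. The added 1 FPKM shrinks this to a log2 ratio of 0.95, under the limit of 1 (2-fold) used for a call. Without it the log2 ratio was 4.44, and with 0.1 FPKM added it was 2.94. Fosb reached the minimum of 1 FPKM only in the Alb-Cre library. If 1 FPKM stands for the number of fragments estimated from the lowest values, Fosb rested on about 535 fragments in the Alb-Cre library (exact Poisson 95% interval 491 to 582) and about 22 in the control library (13.8 to 33.3). These intervals cover counting error only.

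Fosl1 encodes Fra-1, the other Fos protein without a strong activation domain. It was listed at 0.00771 FPKM in the Alb-Cre library and at 0 in the control library, with too little data for a test by the authors. This stands for about 2 fragments in the Alb-Cre library and 0 in the control library, under a floor of 3, so no fold is given. Fosl1 (chromosome 19, 5447698 to 5457563) overlaps Ccdc85b on the opposite strand, and whether the counting used strand is not given in the sources used here.

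**Figure D1:**
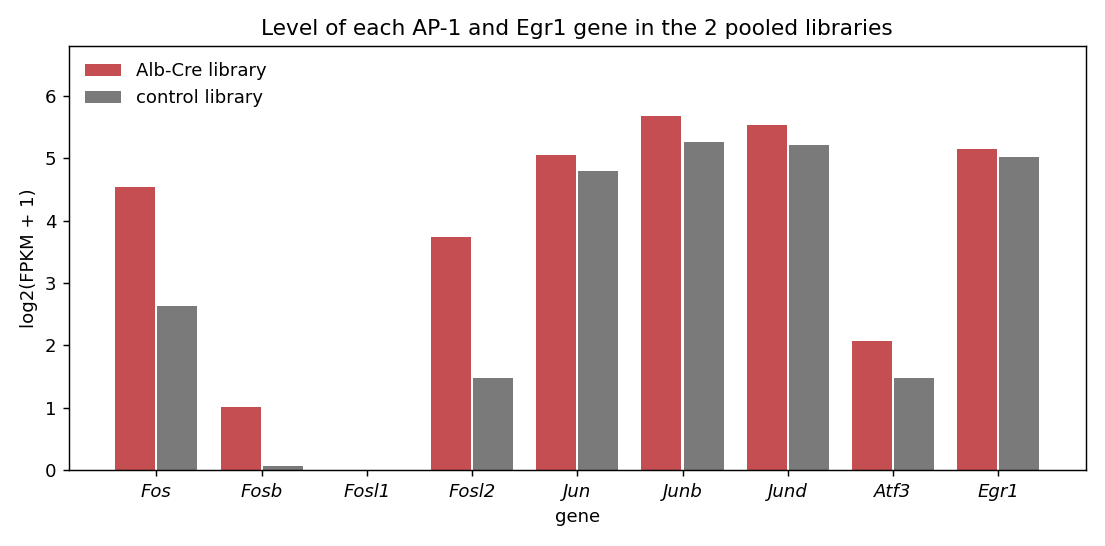
Level of each of the 9 genes as log2(FPKM + 1), with the Alb-Cre library in red on the left and the control library in grey on the right of each pair; each bar is 1 pooled library, so there are no error bars. Fos, Fosb and Fosl2 show the widest gaps, while Jun, Junb, Jund and Egr1 are high in both libraries and Fosl1 lies at the base line.

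The Jun family was abundant in both libraries, and each member was slightly higher in the Alb-Cre library. Junb, which encodes a Jun protein that can restrain c-Jun activity, had 50.3 FPKM in the Alb-Cre library and 37.3 FPKM in the control library, a log2 ratio of 0.42. Jund, the most constitutive member of the family, had 45.3 FPKM in the Alb-Cre library and 36.2 FPKM in the control library (log2 ratio 0.32). Jun, which encodes c-Jun, had 32.0 FPKM in the Alb-Cre library and 26.7 FPKM in the control library (log2 ratio 0.26). All 3 lay well inside the 2-fold limits. Jun (chromosome 4, 95049036 to 95052222) overlaps the antisense gene Junos, and Jund (chromosome 8, 70697739 to 70700616) overlaps the antisense gene Gm11175, so reads of each pair may not be separated. Junb (chromosome 8, 84976909 to 84978748) overlaps no other annotated gene.

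Egr1, a zinc finger factor that binds GC-rich sites and is no part of AP-1, had nearly the same level in both libraries. It had 34.3 FPKM in the Alb-Cre library and 31.3 FPKM in the control library, a log2 ratio of 0.13, the lowest of the 8 measured members. Egr1 lies on chromosome 18, 34861207 to 34864956. Its relatives were scarce: Egr2 had 0.216 FPKM in the Alb-Cre library and 0.0366 FPKM in the control library. Egr3 had 0.0558 FPKM in the Alb-Cre library and 0.0128 FPKM in the control library, and Egr4 was listed at 0 in both.

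Atf3, a stress-induced bZIP factor that pairs with Jun proteins and represses many targets as a homodimer, lay between the Fos and Jun families. Its level was 3.19 FPKM in the Alb-Cre library and 1.78 FPKM in the control library, a plain ratio of 1.79 and a log2 ratio of 0.59. Atf3 lies on chromosome 1, 191170297 to 191183333.

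Of the 8 members that passed the minimum, 2 exceeded the 2-fold limit upwards in the Alb-Cre library, 0 downwards, and 6 lay between. The limit was exceeded upwards by 3.75% and downwards by 1.83% of all 11406 measured genes. At a limit of 1.5-fold, Fosb and Atf3 joined Fos and Fosl2 as higher and 0 members were lower, where 8.87% of all measured genes were higher and 5.8% lower. The 8 log2 ratios were all above 0, whereas 41.2% of all measured genes had a ratio above 0. Their median was 0.51, beside -0.06 over all measured genes. Fosb passed the minimum only through the Alb-Cre library. Its ratio could thus only be above 0, and it enters both the count and the median. Within the group, the 3 measured Fos family genes had plain ratios of 4.28 (Fos), 6.93 (Fosl2) and 21.7 (Fosb). The 5 other measured members had plain ratios from 1.1 to 1.79. With 1 library per genotype, this difference within the group could not be tested.

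**Figure D2:**
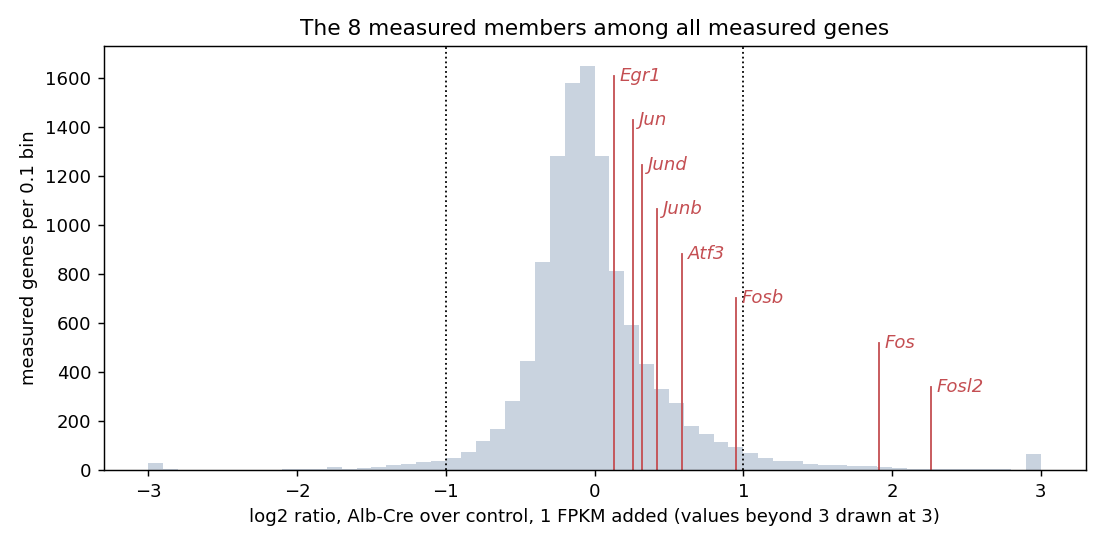
Distribution of the log2 ratio, Alb-Cre over control with 1 FPKM added, over 11406 measured genes in bins of 0.1, with the 8 measured members as red lines; line heights are only for legibility and dotted lines mark the 2-fold limits. Egr1, Jun, Jund, Junb and Atf3 lie between 0.13 and 0.59, Fosb lies at 0.95 and Fos and Fosl2 lie at 1.91 and 2.26.

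In the authors' deposited table, Fosl2 (q-value 0.0109) and Fos (q-value 0.0338) were called different between the libraries. Of the 14868 genes that it tested, 0.599% were called in favour of the Alb-Cre library and 0.074% in favour of the control library. Fosb was not called in the authors' deposited table, with a p-value of 0.00245 and a q-value of 0.187. For Jun, Junb, Jund, Atf3 and Egr1, the authors' deposited table gave a q-value of 0.999. With no replicates these values depend on a spread that the authors' software modelled, so they concern 2 libraries and not 2 genotypes.

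Because FPKM is scaled by transcript length, levels can be added and compared between genes. The 4 Fos family genes summed to 35.69 FPKM in the Alb-Cre library and 7.039 FPKM in the control library, a 5.07-fold difference. The 3 Jun family genes summed to 127.6 FPKM in the Alb-Cre library and 100.2 FPKM in the control library, a 1.27-fold difference. Jun family transcripts thus outnumbered Fos family transcripts in both libraries, by 3.58 to 1 in the Alb-Cre library and by 14.2 to 1 in the control library. Protein was not measured.

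The make-up of the Fos family differed more than that of the Jun family. Fos gave 62.4% of the summed Fos family level in the Alb-Cre library and 74.0% in the control library. The share of Fosl2 was 34.7% in the Alb-Cre library and 25.4% in the control library, and that of Fosb was 2.88% in the Alb-Cre library and 0.671% in the control library. In the Jun family, Junb gave 39.4% in the Alb-Cre library and 37.2% in the control library, Jund 35.5% in the Alb-Cre library and 36.1% in the control library, and Jun 25.1% in the Alb-Cre library and 26.6% in the control library. From highest to lowest, the order of the levels was Junb, Jund, Egr1, Jun, Fos, Fosl2, Atf3, Fosb and Fosl1 in each library. Without replicates it cannot be said which neighbours in that order differ beyond their spread, and in the control library Fosl2 (1.79 FPKM) and Atf3 (1.78 FPKM) were nearly equal.

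**Figure D3:**
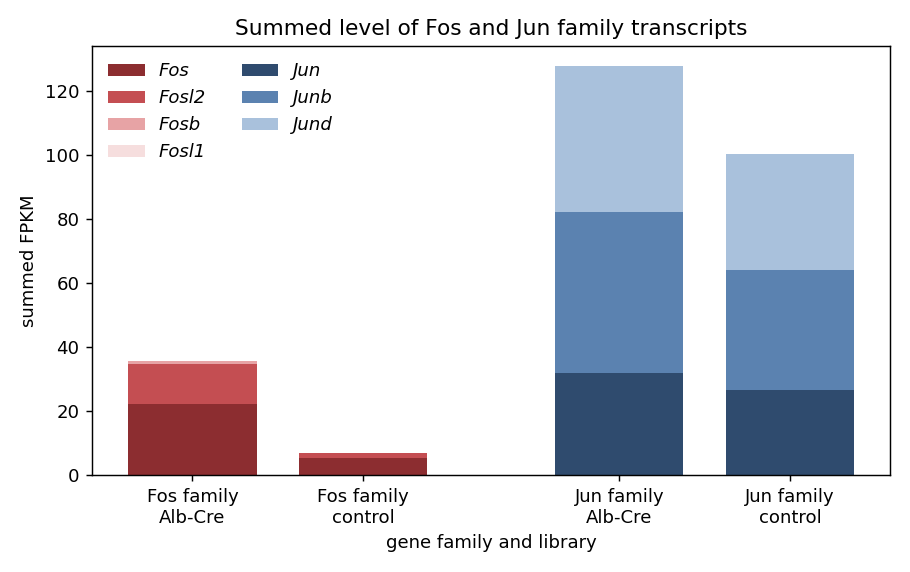
Summed FPKM of the Fos family (reds) and the Jun family (blues), with the Alb-Cre library left of the control library in each pair and each colour 1 gene. The Fos family stack is 35.69 FPKM in the Alb-Cre library and 7.039 FPKM in the control library, while the Jun family stack is 127.6 FPKM in the Alb-Cre library and 100.2 FPKM in the control library.

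Among 55 other immediate early genes, 46 were measured. Of these, 13 (28.3%) exceeded the 2-fold limit upwards in the Alb-Cre library and 0 downwards, beside 3.75% and 1.83% of all measured genes. The median log2 ratio of the 46 was 0.37, and 4 of them passed the minimum only through the Alb-Cre library. The 3 highest ratios were those of Sgk1, Nr4a1 and Btg2. Sgk1, a kinase related to Akt, had 146 FPKM in the Alb-Cre library and 9.75 FPKM in the control library (log2 ratio 3.77). Nr4a1, an orphan nuclear receptor induced by cyclic AMP and growth factors, had 23.8 FPKM in the Alb-Cre library and 2.93 FPKM in the control library (2.66). Btg2, an antiproliferative gene, had 52.2 FPKM in the Alb-Cre library and 11.9 FPKM in the control library (2.05).

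The other 10 higher genes, named after their values were seen, were Gadd45g, Maff, Ier3, Hbegf, Klf2, Klf6, Ctgf, Nr4a2, Gadd45b and Id1, with log2 ratios from 1.99 for Gadd45g to 1.12 for Id1. Maff, a small Maf protein with a bZIP domain, had 25.8 FPKM in the Alb-Cre library and 5.98 FPKM in the control library. Nr4a3 was listed at 0.298 FPKM in the Alb-Cre library and at 0 in the control library, under the minimum. The authors' deposited table gave it a q-value of 0.0109.

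Not all immediate early genes were higher. The 3 lowest ratios were those of Klf10, Pim1 and Bhlhe40, all inside the 2-fold limits. Klf10, a gene induced early by transforming growth factor beta, had 11.0 FPKM in the Alb-Cre library and 21.2 FPKM in the control library (log2 ratio -0.89). The kinase gene Pim1 had 7.65 FPKM in the Alb-Cre library and 14.4 FPKM in the control library (-0.84). Bhlhe40, a repressor linked to the clock, had 52.8 FPKM in the Alb-Cre library and 90.2 FPKM in the control library (-0.76). Of 46 measured genes, 29 had a ratio above 0.

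By the pair of levels, Fos was nearest to Maff and Fosl2 to Ier3 among the 55 genes, at Euclidean distances of 0.27 and 0.66 on the log2(FPKM + 1) scale. Fosb was nearest to Dusp2 (0.22), which had 0.792 FPKM in the Alb-Cre library and 0.147 FPKM in the control library. Junb and Jund were both nearest to Plk3 (0.03 and 0.13), Jun and Egr1 to Nfkbia (0.21 and 0.19), and Atf3 to Tiparp (0.35). Fosl1, close to 0 in both libraries, was nearest to Npas4 (0.00). With 2 libraries such likeness covers 2 points only.

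**Figure D4:**
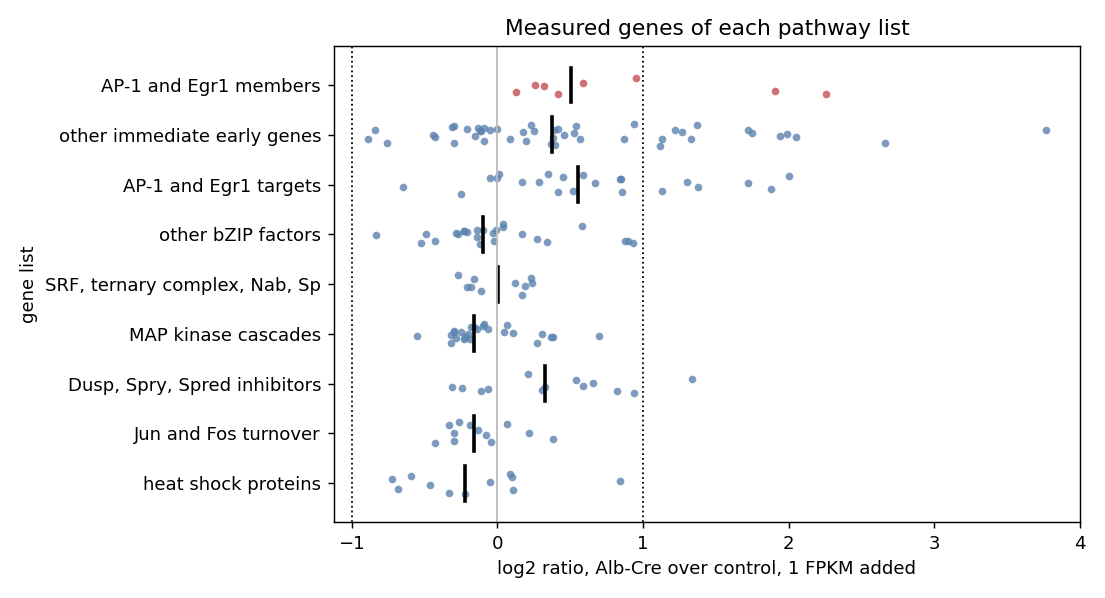
Log2 ratio, Alb-Cre over control with 1 FPKM added, of each measured gene (1 point per gene) in 9 lists, with a black bar at each list's median and dotted lines at the 2-fold limits; vertical scatter has no meaning. The AP-1 and Egr1 members, the other immediate early genes and the AP-1 and Egr1 targets have medians of 0.51, 0.37 and 0.55 and reach beyond the upper limit. With no minimum the target median is 0.42. The bZIP factors, the SRF group, the MAP kinases, the turnover genes and the heat shock proteins have medians between -0.22 and 0.01 and no gene beyond a limit. Of all measured genes, 3.75% lay beyond the upper limit and 1.83% beyond the lower one.

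Other bZIP factors, which can pair with Fos or Jun proteins or share their sites, stayed inside the limits. Of 30, 25 were measured and 0 passed either limit, beside 3.75% of all measured genes past the upper limit and 1.83% past the lower. In a list this short, a count of 0 is near those shares. The median log2 ratio of the 25 was -0.10. Jdp2, a repressor that pairs with Jun proteins, was the highest with 2.90 FPKM in the Alb-Cre library and 1.05 FPKM in the control library (0.93). Crem, the cyclic AMP response modulator, had 25.8 FPKM in the Alb-Cre library and 13.3 FPKM in the control library (0.90). Batf3, a partner of Jun proteins in dendritic cells (0.88), came next. The lowest were Cebpa, Mafg and Creb3l3, with ratios of -0.83, -0.52 and -0.49. With ratios centred on abundant genes, 3 of the 25, Jdp2, Crem and Batf3, passed the upper limit, beside 563 of all 11406 measured genes. Of the 25, 2 passed the minimum only through the Alb-Cre library. Batf3, with 1.99 FPKM in the Alb-Cre library and 0.629 FPKM in the control library, was 1 of these.

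Genes that act above these factors differed little. Of 11 genes for SRF, its partners, the Egr1 corepressors Nab1 and Nab2 and Sp factors, 10 were measured, with ratios from -0.27 for Mkl2 to 0.24 for Elk3. Srf itself had 5.20 FPKM in the Alb-Cre library and 4.28 FPKM in the control library (0.23). Of 30 genes of the MAP kinase cascades, 25 were measured and 0 passed either limit, with a median of -0.16. That count is near the shares over all measured genes, 3.75% upwards and 1.83% downwards. Mapkapk2, a kinase below p38, had the highest ratio, 0.70, and Map2k3, a kinase above p38, the lowest, -0.55. These are transcript levels, and kinase activity was not measured.

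Of 15 Dusp, Spry and Spred genes, which encode feedback inhibitors of MAP kinases, 13 were measured. Of these, 1 was higher (7.69%, beside 3.75% of all measured genes) and 0 lower, with a median of 0.33. Dusp8, a phosphatase for the Jun kinases, had 2.01 FPKM in the Alb-Cre library and 0.190 FPKM in the control library (log2 ratio 1.34), so it passed the minimum only through the Alb-Cre library. Dusp5 (0.94) and Dusp4 (0.82), which act on ERK in the nucleus, came next. Dusp1, itself an immediate early gene, had the lowest ratio (-0.31), followed by Spry4 (-0.24) and Dusp6 (-0.11). With a minimum of 5 FPKM the median was -0.08, and the count of higher genes was 0 with that minimum, with 5 FPKM added, at a 4-fold limit and by the authors' deposited q-value.

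For turnover of Jun protein and Fos mRNA, all 12 listed genes were measured and 0 passed either limit, with a median of -0.16. With so few genes, 0 is near the shares over all measured genes, 3.75% upwards and 1.83% downwards. Zfp36, which encodes an mRNA decay factor for short-lived transcripts, was the lowest, with 102 FPKM in the Alb-Cre library and 138 FPKM in the control library (-0.43). Rfwd2, a ubiquitin ligase gene for c-Jun, had a ratio of -0.33, and Zfp36l2 had the highest, 0.38.

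Of 33 genes described elsewhere as AP-1 or Egr1 targets, 22 were measured, and 8 of these passed the minimum only through the Alb-Cre library. Of the 22, 6 (27.3%) exceeded the 2-fold limit upwards and 0 downwards, beside 3.75% and 1.83% of all measured genes. The median log2 ratio was 0.55, and 0.42 with no minimum. The cell cycle inhibitor gene Cdkn1a had 5.49 FPKM in the Alb-Cre library and 0.761 FPKM in the control library (1.88). Hbegf, a growth factor that is also in the immediate early list, had 3.82 FPKM in the Alb-Cre library and 0.466 FPKM in the control library (1.72). Ccnd1, Mmp12 and Cd44 were also among them. Of the 6, 4 passed the minimum only through the Alb-Cre library, and many are also known to respond to other factors. The classical collagenase gene Mmp13 was under the minimum, with 0.259 FPKM in the Alb-Cre library and 0.0576 FPKM in the control library. The lowest ratios were those of Gdf15 (-0.65), Vegfa (-0.25) and F3 (-0.05).

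Heat shock genes, which encode chaperones induced by protein damage, stayed inside the limits. Of 12, 11 were measured and 0 passed either limit, with a median of -0.22. Here too a count of 0 is near the shares over all measured genes, 3.75% upwards and 1.83% downwards. Dnaja1, Bag3 and Hsph1 had the lowest ratios, at -0.72, -0.68 and -0.59. The highest were Hspb1 (0.84), Hspa8 (0.11) and Hspe1 (0.10).

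Markers of myeloid cells had raised levels in the Alb-Cre library too, and their part in the Fos family values was not tested. All 9 Kupffer cell markers were measured, and 5 (Marco, C1qb, Cd5l, C1qc and C1qa) were beyond the upper 2-fold limit and 0 beyond the lower one. The 5 are 55.6% of the list, beside 3.75% of all measured genes beyond the upper limit and 1.83% beyond the lower one. The 9 markers summed to 376.2 FPKM in the Alb-Cre library and 162.0 FPKM in the control library. Of 9 monocyte and neutrophil markers, 6 were measured, and 4 of the 6 (S100a9, Cd14, S100a8 and Lyz2, 66.7%) were higher and 0 lower. The 9 summed to 115.5 FPKM in the Alb-Cre library and 35.92 FPKM in the control library. These sums differed 2.32-fold and 3.22-fold, beside the 5.07-fold difference of the Fos family sum. Marco (1.95) led the first list and S100a9 (1.84) the second, and no marker of either was listed at 0. The monocyte and neutrophil median was 1.69 as measured, 0.72 with no minimum and 0.97 with 5 FPKM added, and in both lists the count of higher genes was 0 at a 4-fold limit and by the authors' deposited q-value.

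Among other cell types, medians of endothelial, stellate and lymphocyte markers lay above 0, and those of hepatocyte and bile duct markers slightly below 0. Of 7 hepatocyte markers 6 were measured, with 1 beyond the upper limit (Tat) and 0 beyond the lower one. That is 16.7%, beside 3.75% of all measured genes, and the median log2 ratio of these markers was -0.10. Ttr had the lowest ratio of the 6, -0.84, with 3630 FPKM in the Alb-Cre library and 6490 FPKM in the control library. Cyp2e1, listed at 0 because the authors' status marks too many fragments at its locus, was set aside. Of 8 endothelial markers 1 was higher (Lyve1, 12.5%), of 7 stellate markers 0, and their medians were 0.40 and 0.50. Neither list had a lower gene. The endothelial marker Stab2 went the other way, with 0.98 FPKM in the Alb-Cre library and 2.27 FPKM in the control library (-0.72). It passed the lower limit with 0.1 FPKM added or none, beside 272 and 248 of all 11406 measured genes. Of the 7 lymphocyte markers 4 were measured, all under 1 FPKM in the control library, with a median of 0.68 and sums of 7.854 FPKM in the Alb-Cre library and 2.971 FPKM in the control library, a 2.64-fold difference. The 4 thus passed the minimum only through the Alb-Cre library, and their ratios could only be above 0. Their median was 1.33 with 0.1 FPKM added, 1.47 with none and 0.21 with 5 FPKM added. With no minimum, the median of the list was 0.50. With 0.1 FPKM added or none, 3 of the 4 passed the upper limit, beside 769 and 773 of all 11406 measured genes. Of 6 bile duct markers 2 were measured, with a median of -0.13. Of 4 red cell genes 1 was measured, Alas2, which had 41.8 FPKM in the Alb-Cre library and 117 FPKM in the control library (log2 ratio -1.46).

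**Figure D5:**
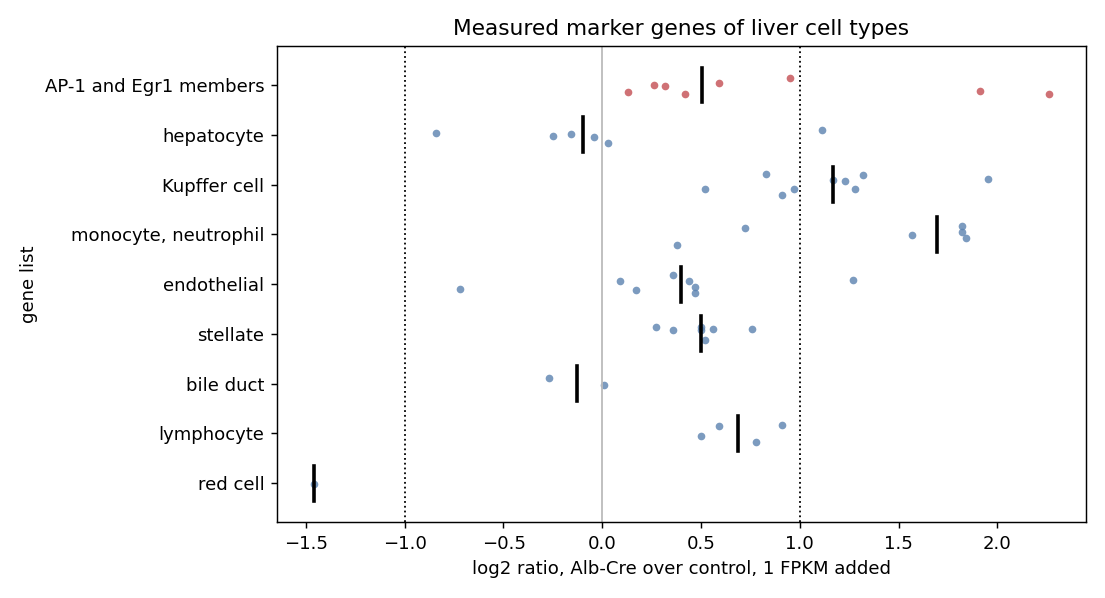
Log2 ratio, Alb-Cre over control with 1 FPKM added, of measured marker genes of 8 cell types below the AP-1 and Egr1 members, 1 point per gene, with a black bar at each median and dotted lines at the 2-fold limits. The medians of the Kupffer cell and the monocyte and neutrophil markers are 1.17 and 1.69 (0.72 for the second with no minimum), above that of the members, 0.51, and the hepatocyte median is -0.10.

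Among all genes past the 2-fold limit, the share on the Alb-Cre side was 67.2%, and 78.0% when ratios were centred on the 4964 genes that reached 10 FPKM in each library. Centring raised every log2 ratio by 0.13. Relative to that shift, Egr1 stood at 0.26, Jun at 0.39, Jund at 0.45, Junb at 0.56, Atf3 at 0.73, Fosb at 1.09, Fos at 2.04 and Fosl2 at 2.40, so that Fosb passed the 2-fold limit.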

How the data were processed

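RNA from perfused livers was sequenced as 1 library per genotype, each from the pooled mRNA of 4 livers, per the labels. FastQC, TopHat2 2.0.8, Cuffdiff 2.1.1 and mm10 are named, per the submitters' processing notes, with no role or order. The authors deposited 1 gene table in the Cuffdiff layout, with an FPKM value for each library and a p-value and q-value of their own comparison, per the file headers. The fold change column held broken cells and was not used. The sources used here do not state the annotation, scaling setting, strand or read totals.

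Rows of status OK with 1 FPKM or more in at least 1 library counted as measured. The difference was log2((Alb-Cre FPKM + 1)/(control FPKM + 1)), called at 1 or more in size, with no p-value of its own because each group is 1 library. An estimate of depth came from weakly detected genes with 1 GENCODE vM21 transcript over 1000 bases. Their values times length gathered at whole multiples of 0.00725 FPKM per kb in the Alb-Cre library (400 genes) and 0.00805 in the control library (389 genes). Of these, 65.2% and 66.1% lay within 0.2 of a whole fragment. An even spread gives 40% if the spacing is fixed beforehand and values near 0 also count. Here the spacing was chosen to fit these same values, and those nearest 0 did not count, so 40% is not a matched reference. The chosen spacings put 1 FPKM in 1 kb at 137.9 and 124.2 fragments, and the Alb-Cre library at 1.11 times the depth. The longest coding transcript was used for implied fragments. The deposited start was 1 less than RefSeq's for 10014 of 20671 matched genes, so 1 was added; positions count from 1.

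The members and gene lists were chosen with earlier results of these data known, and lists share some genes. Named are the 9 members, the 3 highest and 3 lowest measured genes of lists, the nearest immediate early gene to each member, and others marked as chosen after their values were seen or used as markers; 1 gene under this rule is not reported here. Promoter windows are from RefSeq GRCm38.p6; 7 of 9 members had an entry. The ratio and depth steps were tested on simulated data. Alternatives changed the pseudocount, minimum, scaling, status and call limit. Python 3.11.15, pandas 2.3.3, numpy 2.4.6, scipy 1.17.1 and matplotlib 3.10.9 were used.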

Additional observations from a re-analysis of the deposited data

How the results depend on the processing

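No paired analysis was possible because each genotype has 1 library, and no replicate could be left out. Under 10 alternatives, and 1 added after the values were seen (no pseudocount), the 8 measured members kept a ratio above 0 wherever they gave one, and 0 members were called lower. Ratios ranged from 1.36 to 2.79 for Fosl2, 1.42 to 2.1 for Fos, 0.26 to 4.44 for Fosb, 0.27 to 0.84 for Atf3, 0.39 to 0.56 for Junb, 0.29 to 0.45 for Jund, 0.23 to 0.39 for Jun and 0.12 to 0.26 for Egr1. The number of members called higher was 4 at a 1.5-fold limit (8.87% of all genes) and 1, Fosl2, at 4-fold (1.03%). It was 3, with Fosb, with 0.1 FPKM or no pseudocount and with centred ratios, and 2 otherwise.

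Over all genes, 769 were higher with 0.1 FPKM added, 773 with none, 178 with 5 FPKM and 283 with a minimum of 5 FPKM. At 1.5-fold 1012 were higher and 661 lower, at 4-fold 117 and 45, and at the authors' deposited q-value limit of 0.05, among measured genes, 75 and 11. Immediate early genes called higher numbered 5 with 5 FPKM added, 3 at 4-fold and 5 by the authors' deposited q-value, and 3 were lower at 1.5-fold. Target genes called higher numbered 1 with 5 FPKM added, 3 with a minimum of 5 FPKM, 11 (with 1 lower) at 1.5-fold, 0 at 4-fold, 0 by the authors' deposited q-value and 10 with no pseudocount. The MAP kinase inhibitor list's median turned from 0.33 to -0.08 with a minimum of 5 FPKM. Medians near 0 turned too: the SRF list to -0.01 with 5 FPKM added and -0.14 with that minimum, and the bile duct markers to 0.01 with no minimum, with a minimum of 5 FPKM and centred. The bZIP list turned to 0.01 with rescaled sums and 0.03 centred, and the hepatocyte markers to 0.02 and 0.03 under those settings. The spread between mice, which pooling hides, was not measured, and for Fosb and Fosl1 the few implied fragments in the control library limit the precision.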
